A study of Mus musculus with 6 samples.

Results

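The genes described here encode 10 proteins that build the axon initial segment and the node of Ranvier or belong to the L1 family of adhesion molecules: Ank3, Sptbn4, Sptan1, Nfasc, Nrcam, L1cam, Chl1, Cntn1, Cntnap1 and Cntnap2. They were taken by symbol from a list of names chosen with earlier results of these data known. All 10 were found among the 55335 genes counted. The RNA came from an anti-HA pull-down on retinas of C57BL/6 mice, labelled wild type and aged 10 weeks, and the labelled cell type is the retinal ganglion cell, whose axon runs in the optic nerve. There were 3 naive libraries and 3 of a glaucoma model named SOHU, silicone oil-induced ocular hypertension, in which oil placed in the front chamber of the eye raises its pressure, here with retinas taken 1 week after the oil. The labels do not name the protein that carried the HA tag, and separate animals, or pools, are not stated for the replicates, so a p-value here covers the spread between samples that may differ only technically. Libraries held 21691354 to 26824919 counted reads, and the members had 19566 to 31145 of them. Without naive replicate 1 or naive replicate 3, edgeR called 0 genes in the whole table (3919 and 4251 genes at an unadjusted p under 0.05), so each call below holds for the 6 libraries together.

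The axon initial segment is the stretch of axon next to the cell body where action potentials start, and nodes of Ranvier repeat its protein assembly along the myelinated axon. Ankyrin-G, the product of Ank3, anchors sodium and potassium channels and L1-family adhesion molecules to a submembrane lattice of alpha- and beta-spectrin. Contactin and the Caspr proteins form the axonal side of the junction with glia at the edge of the node. Ganglion cell axons run unmyelinated in the mouse retina and become myelinated behind the eye.

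In the plot of levels by library, 7 members had lower and 3 higher means in SOHU. Of the 10, all of which passed the filter on low counts, 3 fell (Sptan1, Sptbn4 and L1cam) and 2 rose (Chl1 and Cntn1) at an adjusted p under 0.05 in edgeR's quasi-likelihood test, where 5.93% of all 17687 genes tested fell and 8.02% rose. Groups did not overlap in 7 members that were lower in SOHU and 2 that were higher, beside 19.7% and 19.3% of all genes. The median log2 fold change of the members was -0.43, beside 0.014 for all genes. Together the members took 1161.0, 1230.2 and 1112.4 unscaled CPM in naive replicates 1 to 3, against 956.8, 902.0 and 1117.6 in SOHU, and the groups overlapped (two-sided exact permutation test p = 0.2, where 0.1 is the smallest p that 3 against 3 allow). Unless called unscaled, CPM, the count normalised to the library's total, includes TMM scaling, and values after a mean are SD with n = 3. In bulk RNA, fewer cells of a type and less RNA per cell cannot be told apart.

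**Figure D1:**
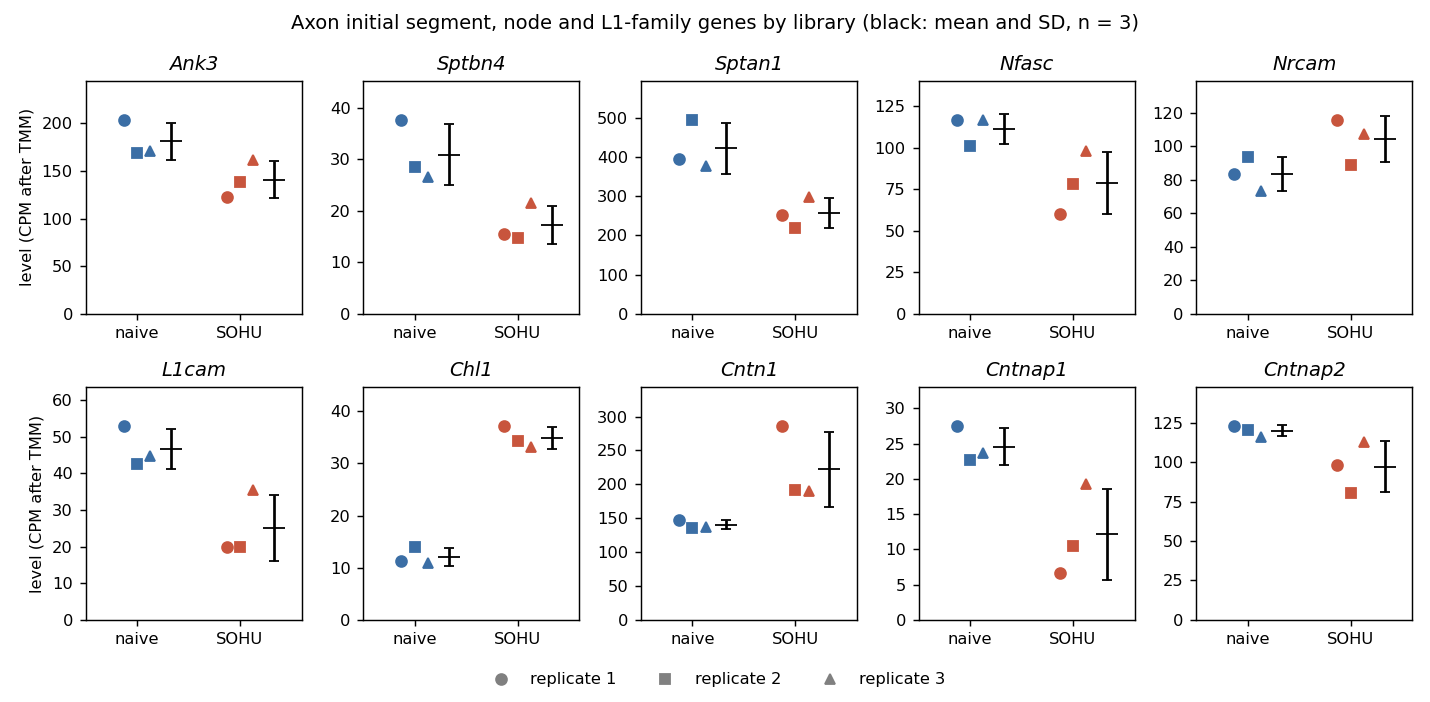
Level of each of the 10 genes in CPM (vertical axis from 0) in the naive and SOHU libraries, with the replicate given by the shape of the point and the mean and SD in black. The Chl1 points of SOHU, 33.2 to 37.2 CPM, stand apart from the naive points of 10.9 to 14.0 CPM, while L1cam, Sptbn4 and Sptan1 lie lower in every SOHU library than in any naive library.

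The spectrins of the segment fell, while the change of their anchor Ank3 did not pass the threshold. Sptan1 (ENSMUSG00000057738.14, mm10 chr2:29965560-30031451, plus strand) encodes alpha-II spectrin, the partner of each neuronal beta-spectrin. It had 395.0, 495.6 and 376.4 CPM in naive and 253.3, 220.0 and 298.3 CPM in SOHU. Every SOHU library thus lay below every naive library, and the level fell 1.64-fold (log2 fold change -0.72, SE 0.16, 95% interval -1.08 to -0.35, edgeR adjusted p = 0.0228). Sptbn4 (ENSMUSG00000011751.16, chr7:27356383-27447686, minus strand) encodes beta-IV spectrin, the form concentrated at initial segments and nodes. Its levels were 37.7, 28.5 and 26.6 CPM in naive and 15.5, 14.7 and 21.5 CPM in SOHU. This was a fall of 1.79-fold without overlap of the groups (-0.84, SE 0.20, interval -1.30 to -0.39, edgeR adjusted p = 0.028). Ank3 (ENSMUSG00000069601.14, chr10:69398773-70027438, plus strand) encodes ankyrin-G, whose loss removes the initial segment in mouse neurons. It had 203.8, 169.1 and 171.3 CPM in naive and 122.4, 138.7 and 161.6 CPM in SOHU. The groups did not overlap, but SOHU replicate 3 lay close to the naive libraries, and the log2 fold change of -0.36 (SE 0.15, interval -0.69 to -0.04) did not pass (edgeR adjusted p = 0.122). Counts are per gene, so the giant and shorter forms of ankyrin-G are pooled in them.

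The L1 family, of 4 transmembrane adhesion molecules with immunoglobulin and fibronectin domains, had 1 member that rose, 1 that fell and 2 that did not pass. All 4 bind ankyrins through a short motif in their cytoplasmic tail. The mouse coding sequences around it are shown because these paralogues carry forms of it while Chl1 rose and L1cam fell. Each line holds 75 coding bases from GENCODE M21 transcripts on GRCm38 (mm10), 5′ to 3′ on the gene's strand, with the 15 bases that encode the ankyrin-binding motif in capitals. The stretches lie within 1 exon each, at chrX:73855092-73855166 (minus strand), chr1:132570477-132570551 (minus), chr12:44598456-44598530 (plus) and chr6:103729219-103729293 (plus), in the order printed.
L1cam: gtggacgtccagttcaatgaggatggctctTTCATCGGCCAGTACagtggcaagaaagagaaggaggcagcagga
Nfasc: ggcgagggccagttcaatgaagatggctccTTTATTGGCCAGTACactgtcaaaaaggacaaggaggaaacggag
Nrcam: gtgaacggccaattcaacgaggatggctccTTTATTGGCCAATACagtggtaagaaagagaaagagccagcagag
Chl1: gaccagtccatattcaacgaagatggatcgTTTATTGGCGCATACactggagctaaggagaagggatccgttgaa
Over the 75 bases L1cam matched Nrcam at 62, Nfasc at 57 and Chl1 at 44 positions. Within the 15 bases of the motif, Nfasc and Nrcam shared 14, L1cam shared 13 with Nfasc and 12 with Nrcam, and Chl1 shared 13, 12 and 10 with Nrcam, Nfasc and L1cam. The codon before the last of the motif is GCA, for alanine, in Chl1. In L1cam, Nfasc and Nrcam it is CAG or CAA, for glutamine.

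Chl1 and L1cam moved in opposite directions. Chl1 (ENSMUSG00000030077.11, chr6:103510586-103750211, plus strand), the close homologue of L1 with roles in neurite growth and survival, had 293, 325 and 246 reads in naive and 896, 765 and 817 in SOHU. In CPM this was 11.3, 14.0 and 10.9 against 37.2, 34.3 and 33.2, a rise of 2.90-fold (1.54, SE 0.16, interval 1.17 to 1.90, edgeR adjusted p = 0.00762). The lowest SOHU library stood more than the whole naive range above the highest naive library, and 1.96% of the genes tested had a larger log2 fold change. L1cam (ENSMUSG00000031391.18, chrX:73853778-73896105, minus strand) encodes L1, an adhesion molecule of growing and bundled axons. It went from 52.9, 42.4 and 44.6 CPM in naive to 19.8, 20.0 and 35.4 CPM in SOHU. The fall was 1.86-fold without overlap (-0.90, SE 0.23, interval -1.41 to -0.38, edgeR adjusted p = 0.0344), and SOHU replicate 3 was the highest of its group. L1cam shares 100 exon bases with Arhgap4, whose mean count was 1.2% of its own.

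The ratio of the 2 homologues followed from this. Reads of Chl1 were 0.213, 0.329 and 0.244 times those of L1cam in the naive libraries and 1.88, 1.72 and 0.939 times in the SOHU libraries. The log2 ratio differed by 2.49 between the groups (-1.96 ± 0.32 in naive, 0.53 ± 0.54 in SOHU), with no overlap. The two-sided exact permutation test gave p = 0.1, the smallest 3 against 3 allow, and 0.12 adjusted over the 6 ratios compared here. With Chl1 higher and L1cam lower in every SOHU library than in any naive library, that p was fixed in advance and adds no support.

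Neurofascin and NrCAM, the L1-family members most closely tied to the initial segment and node, did not pass in either direction. Nfasc (ENSMUSG00000026442.14, chr1:132564690-132741797, minus strand) encodes the neuronal form that holds the node together as well as a glial form of the paranode, and the counts pool both. It had 116.9, 101.1 and 116.6 CPM in naive and 60.2, 78.4 and 97.9 CPM in SOHU. The groups did not overlap (-0.50, SE 0.18, interval -0.90 to -0.10, edgeR adjusted p = 0.0882). Nrcam (ENSMUSG00000020598.16, chr12:44328885-44601964, plus strand), whose product joins neurofascin at both sites, had 83.5, 93.5 and 73.2 CPM in naive and 115.7, 89.0 and 107.4 CPM in SOHU. It was the only member of the 10 whose groups overlapped, through SOHU replicate 2 and naive replicate 2 (0.32, SE 0.15, interval -0.02 to 0.65, edgeR adjusted p = 0.182). The log2 ratio of Nrcam to Nfasc was nevertheless higher in every SOHU library (0.94, 0.18 and 0.13) than in any naive library (-0.48, -0.11 and -0.67; exact permutation p = 0.1, adjusted over the 6 ratios 0.12).

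Contactin rose and its Caspr partner was lower, passing or not by the tool used. Cntn1 (ENSMUSG00000055022.14, chr15:92051165-92341967, plus strand) encodes contactin, a lipid-anchored adhesion molecule that pairs with Caspr at the paranode and with sodium channels. It had 147.5, 136.0 and 137.5 CPM in naive, a narrow range, and 286.1, 191.4 and 189.6 CPM in SOHU. All SOHU libraries were above the naive ones and SOHU replicate 1 stood highest, for a rise of 1.58-fold (0.66, SE 0.17, interval 0.28 to 1.05, edgeR adjusted p = 0.0347). Cntnap1 (ENSMUSG00000017167.6, chr11:101170523-101190724, plus strand) encodes Caspr, which builds the paranodal junction. Its 27.5, 22.6 and 23.6 CPM in naive stood against 6.69, 10.5 and 19.2 CPM in SOHU. It had the lowest log2 fold change of the members, -1.02 (interval -1.74 to -0.30), but the SOHU libraries were spread over their own wide range, and with an SE of 0.32 it did not pass (edgeR adjusted p = 0.0633). It did pass in DESeq2 (adjusted p = 0.011), in limma-voom (0.0416) and in edgeR with no filter on low counts (0.046), and the adjusted p over all 13 alternatives was 0.00384 to 0.861.

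Cntnap1 shares 233 of its 5875 exon bases with Plekhh3 on the opposite strand, whose mean count was 104.8% of its own, and its value is uncertain in that respect since the strand setting of the counting is not given. Plekhh3 rose from 15.3 ± 0.931 to 23.6 ± 2.75 CPM (log2 fold change 0.62, edgeR adjusted p = 0.0339). Cntnap2 (ENSMUSG00000039419.17, chr6:45059357-47304213, plus strand) encodes Caspr2, which gathers potassium channels beside the paranode. It had 123.1, 120.8 and 116.3 CPM in naive and 98.3, 80.4 and 112.7 CPM in SOHU. The groups just failed to overlap and the change did not pass (-0.31, SE 0.15, interval -0.63 to 0.02, edgeR adjusted p = 0.186). Cntn1 had 5.37, 6.01 and 5.82 times the reads of Cntnap1 in naive and 42.8, 18.2 and 9.88 times in SOHU. That ratio differed by 1.79 on the log2 scale, with the SOHU libraries far apart from each other. For Cntnap2 against Cntnap1 and Ank3 against Sptbn4 the difference was 0.83 and 0.48, without overlap, and the exact permutation p was 0.1 in each of these 3 ratios (0.12 adjusted). For Cntn1 against Cntnap1 that p was fixed in advance and adds no support. There Cntn1 was higher and Cntnap1 lower in every SOHU library than in any naive library. The ratio of Sptan1 to Sptbn4 overlapped between the groups, with a difference of 0.13 on the log2 scale (naive 3.78 ± 0.37, SOHU 3.91 ± 0.12, exact permutation p = 0.8). The exact permutation test on single members gave p = 0.1 for 9 of them and 0.2 for Nrcam. For those 9 that p follows from groups that do not overlap and adds no support.

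Members were compared with each other only per length, as CPM per kilobase of counted exon, which sets genes with long alternative exons such as Ank3 too low. In naive libraries Sptan1 was highest (31.4 ± 4.77), followed by Cntn1 (14.9 ± 0.665) and Cntnap2 (11.7 ± 0.335), each of which did not overlap with its neighbours in this order. Nfasc (7.88 ± 0.636), L1cam (6.35 ± 0.75), Nrcam (6.25 ± 0.762) and Ank3 (5.21 ± 0.558) followed, each overlapping with the next of the 4. Cntnap1 (4.18 ± 0.433) and Sptbn4 (3.23 ± 0.618) overlapped with each other, and Chl1 was lowest (0.979 ± 0.136), apart from Sptbn4. In SOHU libraries the order changed at the top, in the middle and at the bottom. Cntn1 (23.6 ± 5.86) stood above Sptan1 (19.1 ± 2.93), with ranges that overlapped. Nrcam (7.79 ± 1.02) stood ahead of Nfasc (5.58 ± 1.33), and Ank3 (4.04 ± 0.564) ahead of L1cam (3.41 ± 1.22). Chl1 (2.84 ± 0.169) stood above Cntnap1 (2.06 ± 1.09) and Sptbn4 (1.80 ± 0.387). The ranges of neighbours overlapped in each case.

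**Figure D2:**
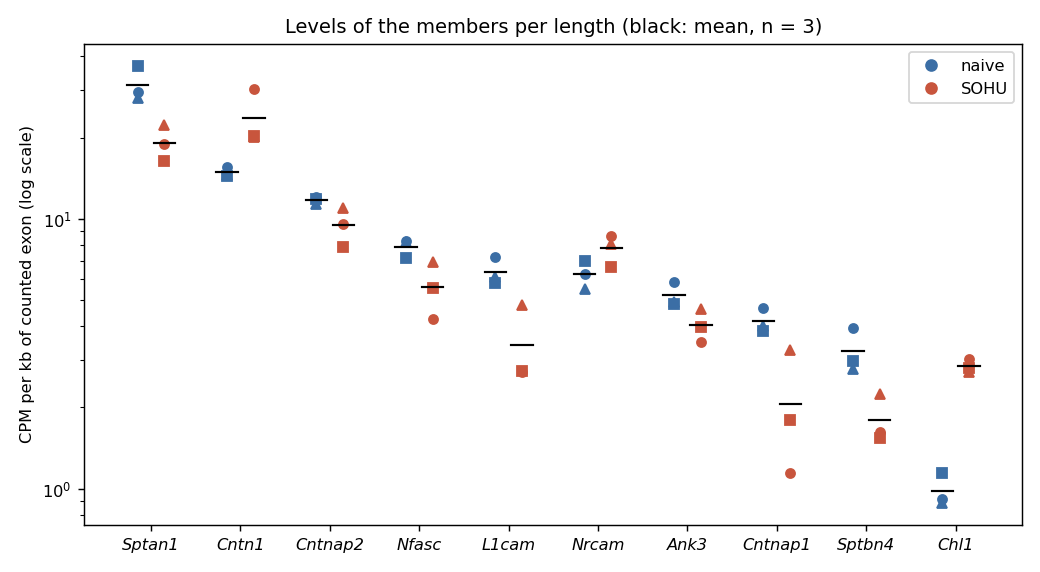
Level of each gene per length, in CPM per kilobase of counted exon on a log axis, with 1 point a library (circle, square and triangle for replicates 1, 2 and 3) and the mean as a black line. Chl1 points are the lowest of the naive points, at 0.885 to 1.14, and the lowest SOHU point of Cntnap1 is also at 1.14. The SOHU points of Chl1, at 2.70 to 3.03, lie within the SOHU range of Cntnap1 and above that of Sptbn4.

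Markers of the sampled cell type were lower, as were 7 of the 10 members, while Chl1 and Cntn1 rose. All 20 ganglion cell markers were detected and 18 of them fell, with a median log2 fold change of -1.05. Their summed level was 4325.9 to 7292.5 CPM in naive and 2110.1 to 2987.9 CPM in SOHU, and SOHU replicate 3 was the highest of its group. In that library 7 of the 7 members with a lower mean in SOHU were also higher than in the other SOHU libraries. Of these markers, 12 had a lower log2 fold change than Cntnap1, 15 than L1cam, 16 than Sptbn4, 18 than Sptan1 and all 20 than Nfasc, Ank3 and Cntnap2.

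With the libraries scaled to the summed ganglion cell markers in place of TMM, the log2 fold change of all genes had a median of 1.15 and that of the markers themselves 0.12. The sum weighs abundant markers most, and Nefl and Sncg were the most abundant. Under TMM, Nefl went from a mean of 1719.7 to 732.0 CPM (-1.23) and Sncg from 1104.4 to 441.3 CPM (-1.32). Both fell further than the marker median of -1.05. In this scaling 5 members were called higher and 0 lower, where 71.3% of all genes were higher and 0.0113% lower. No member had a negative change there. L1cam (0.21, interval -0.46 to 0.89), Sptbn4 (0.30, -0.39 to 1.00), Sptan1 (0.37, -0.23 to 0.98) and Cntnap1 (0.07, -0.65 to 0.79) did not pass. Nfasc (0.63) did not pass either, at an edgeR adjusted p of 0.0701. Ank3 (0.78, edgeR adjusted p = 0.0204) and Cntnap2 (0.81, edgeR adjusted p = 0.0187) were called higher, though below the median of all genes. Chl1 (2.66), Cntn1 (1.83) and Nrcam (1.44) lay above that median. The falls of Sptan1, Sptbn4 and L1cam are thus falls relative to all RNA in the library. Against the summed ganglion cell markers they turned to changes above 0 that did not pass.

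**Figure D3:**
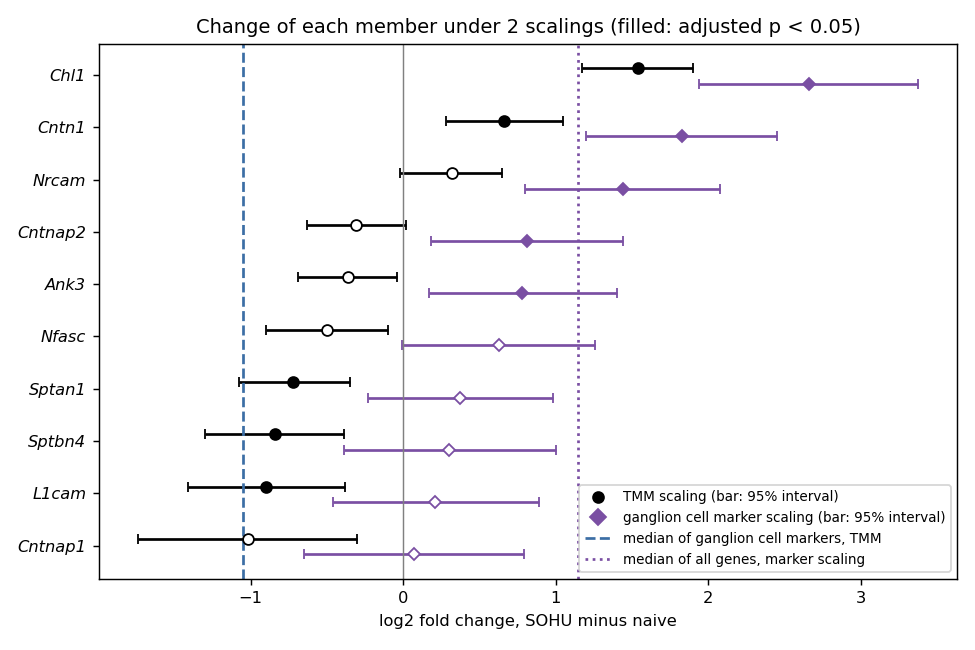
Log2 fold change (SOHU minus naive, horizontal axis) of each gene under TMM scaling (black circles) and under scaling to ganglion cell markers (violet diamonds), with 95% intervals as bars and filled symbols for an adjusted p under 0.05. The dashed line marks the median of the ganglion cell markers under TMM (-1.05) and the dotted line that of all genes under marker scaling (1.15). Chl1 and Cntn1 are to the right of 0 in both.

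Markers of other cells moved as well, and their part in the changes of the members was not tested. Of 14 Müller glia and astrocyte markers tested (15 listed), 9 rose and 0 fell (0 lower at an unadjusted p under 0.05, and 0 lower in DESeq2 and limma-voom). Their summed level was 13939.5 to 18785.3 CPM in naive and 52588.8, 33822.3 and 26587.2 CPM in SOHU replicates 1 to 3. Most of this sum was Apoe (mean 5085.9 CPM in naive, 13706.0 CPM in SOHU) and Clu (4083.4 and 11305.7 CPM). Chl1 had the same order as the sum among the SOHU libraries, and so did Cntn1. Among the naive libraries, replicate 2 had the highest glial sum and the highest Chl1, but the lowest Cntn1. Amacrine and horizontal cell markers had 6 of 17 lower in edgeR (13 in DESeq2 and 10 in limma-voom), with a median log2 fold change of -0.74. Their summed level was 4682.7 to 5372.8 CPM in naive and 2137.8 to 3100.1 CPM in SOHU. Most of this sum was Calb2 (mean 2157.1 CPM in naive, 876.9 CPM in SOHU) and Calb1 (955.2 and 577.0 CPM). Microglia and leukocyte markers had 4 of 11 higher (6.24 to 25.4 CPM summed in naive, 27.1 to 84.0 CPM in SOHU) and vascular markers 3 of the 7 tested of 10 listed (360.9 to 409.0 against 748.3 to 1068.7 CPM). Most of the vascular sum was Kdr (282.6 ± 16.3 to 707.4 ± 147 CPM) and Flt1 (61.0 to 70.2 CPM in naive, 129.2 to 150.4 CPM in SOHU). The endothelial genes Pecam1 (0.427 and 0.255 CPM) and Cdh5 (0.0143 and 0.0412 CPM) were near 0 in both groups and were not tested, and Tek did not pass (-0.21).

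Myelinating glia make their own neurofascin, so markers of oligodendrocytes bear on Nfasc. Of 12 listed, Mobp and Olig2 had 0 reads in all libraries and 5 passed the filter on low counts. Cnp rose, from 89.2, 114.1 and 81.2 CPM to 377.9, 175.6 and 139.6 CPM, and made up most of the sum of the list, which was 105.2 to 136.4 CPM in naive and 159.4 to 390.5 CPM in SOHU. The other 4 did not pass, and each had a log2 fold change below 0. Among them Mbp, for myelin basic protein, had 19.3 ± 0.411 CPM in naive and 13.1 ± 2.70 CPM in SOHU (edgeR adjusted p = 0.0764). Rod and cone markers had 0 of 14 called in edgeR (2 higher at an unadjusted p under 0.05, 2 in DESeq2 and 0 in limma-voom). Their sums overlapped between the groups (4206.6 to 4982.4 against 3658.7 to 6482.8 CPM). Bipolar markers had 1 of 12 higher and 1 lower, with a median log2 fold change of -0.48. Their sums overlapped too (941.2 to 1280.1 against 846.0 to 1127.3 CPM).

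The promoters of the 5 members that passed are shown because these genes moved in different directions. Each is the 250 bases before the transcription start from RefSeq on GRCm38.p6, 5′ to 3′ on the gene's strand, for the start nearest the 5′ end of the counted gene. Capitals mark matches to 4 motifs searched on both strands. The letters of the promoter element bound by the basal machinery were TATAAA. The letters bound by SP and KLF zinc finger proteins, known as the GC box, were GGGCGG. The E-box, which reads the same on the other strand, was searched as CACGTG. The core of sites for homeodomain proteins of the POU type, which also reads the same on the other strand, was searched as ATTAAT. Chl1 is at chr6:103510626-103510875 (plus strand), Cntn1 at chr15:92050915-92051164 (plus), L1cam at chrX:73880835-73881084 (minus), Sptbn4 at chr7:27446590-27446839 (minus) and Sptan1 at chr2:29965310-29965559 (plus). The transcription start that the window precedes lies 15271 bases from the 5′ end of the counted gene for L1cam, 1097 for Sptbn4, 290 for Chl1 and 0 for Cntn1 and Sptan1.
Chl1: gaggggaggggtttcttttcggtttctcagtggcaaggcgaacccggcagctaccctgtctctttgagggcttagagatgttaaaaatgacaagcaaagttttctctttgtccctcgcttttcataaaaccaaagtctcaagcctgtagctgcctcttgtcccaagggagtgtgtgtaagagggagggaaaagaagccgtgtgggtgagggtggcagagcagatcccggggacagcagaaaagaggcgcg
Cntn1: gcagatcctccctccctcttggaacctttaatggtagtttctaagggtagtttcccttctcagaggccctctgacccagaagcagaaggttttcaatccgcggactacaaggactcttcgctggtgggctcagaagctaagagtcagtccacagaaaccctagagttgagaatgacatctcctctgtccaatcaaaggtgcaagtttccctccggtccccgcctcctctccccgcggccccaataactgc
L1cam: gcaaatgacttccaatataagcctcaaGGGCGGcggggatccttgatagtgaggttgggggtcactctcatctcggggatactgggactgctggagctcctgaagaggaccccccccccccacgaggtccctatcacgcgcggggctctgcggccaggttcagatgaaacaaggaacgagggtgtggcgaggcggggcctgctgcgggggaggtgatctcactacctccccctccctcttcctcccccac
Sptbn4: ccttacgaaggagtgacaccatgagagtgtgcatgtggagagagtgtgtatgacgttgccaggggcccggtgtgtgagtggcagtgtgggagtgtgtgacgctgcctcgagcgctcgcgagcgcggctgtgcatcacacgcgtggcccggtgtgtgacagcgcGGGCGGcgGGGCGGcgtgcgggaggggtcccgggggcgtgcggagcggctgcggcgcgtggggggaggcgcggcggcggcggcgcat
Sptan1: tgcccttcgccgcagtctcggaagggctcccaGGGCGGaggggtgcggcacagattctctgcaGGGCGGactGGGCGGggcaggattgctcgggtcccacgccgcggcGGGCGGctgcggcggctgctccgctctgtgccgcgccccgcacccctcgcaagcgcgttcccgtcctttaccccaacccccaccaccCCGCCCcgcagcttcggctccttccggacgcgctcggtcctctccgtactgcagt
No match to these 4 motifs was found in the windows of Chl1 and Cntn1, which rose. Only 1 window a gene was read, where RefSeq gave 4 for Sptbn4, 3 for Cntn1, 2 for L1cam and 1 each for Chl1 and Sptan1. Matches at the other starts are not given here. GGGCGG was found at 1 place in L1cam, 2 in Sptbn4 and 5 in Sptan1, which fell, and it is present in 32.7% of the 32851 promoter windows of the table. Among the other members with a window, Nrcam, Nfasc and Cntnap2 had 1 match each, whichever way their level went. The start used for Nfasc lies 34471 bases from the 5′ end of the counted gene. The share of G and C was 52.4% in Chl1 and 53.6% in Cntn1, 63.2% in L1cam, 72.0% in Sptbn4 and 73.6% in Sptan1, beside a median of 52.4% over all windows. The letters TATAAA occur in 12.4% of all windows and in 0 of the 8 members with a window. The E-box occurs in 6.02% of all windows and in 0 of the 8, and the POU-type core in 4.39% of all windows and in Nfasc alone of the 8. A match is a run of letters and not a bound site.

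Related genes were taken from 7 lists of 100 genes, written from textbook roles but with earlier results of these data known. Of the 96 tested, 26 fell and 5 rose, beside the 5.93% and 8.02% of all genes. Given that choice, these counts are a description and not independent support. Among 15 channel subunits clustered at initial segments and nodes, 9 fell, with a median log2 fold change of -0.91. Scn4b, a beta subunit of sodium channels, went from 19.1 ± 6.84 to 7.11 ± 0.797 CPM (edgeR adjusted p = 0.0137), and the sodium channel gene Scn1a from 170.4 ± 35.8 to 76.1 ± 20.8 CPM (0.0143). The potassium channel beta subunit gene Kcnab2 fell 2.08-fold. Of 17 partners that cluster or bind the channels, 6 fell (median -0.38), among them Epb41l3, the link between Caspr proteins and the cytoskeleton (162.5 ± 22.8 to 73.8 ± 19.0 CPM), Fgf12, which binds sodium channel tails (2.12-fold), and the scaffold gene Dlg2 (1.80-fold).

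A few paralogues of the members fell. Of 5 other ankyrins and spectrins tested, 1 fell, Sptb, which encodes beta-I spectrin (1608.9 ± 218 to 893.9 ± 321 CPM, edgeR adjusted p = 0.0423). Ank2, for ankyrin-B, did not pass in edgeR (-0.53, adjusted p = 0.054) but did in DESeq2 (adjusted p = 0.0186) and limma-voom (0.0499). Of 10 other contactin and Caspr family genes, 2 fell: Cntn2, which partners Caspr2 (10.9 ± 2.77 to 4.97 ± 1.66 CPM), and Cntn4 (52.7 ± 7.74 to 29.1 ± 9.91 CPM). Cntnap4 did not pass in edgeR (-0.93, adjusted p = 0.0745) or limma-voom (0.0814) but did in DESeq2 (0.0477). In each of these lists DESeq2 had 4 genes lower and limma-voom 2. Cntnap3 (0.74) and Cntn3 (-0.02), named after their values were seen, did not pass in edgeR. No other family member of either list rose, and none was higher at an unadjusted p under 0.05 or in DESeq2 or limma-voom.

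The 19 microtubule and actin genes of the segment moved both ways, with 7 lower and 3 higher. Add2, a neuronal adducin that caps actin on the spectrin lattice, fell from 135.3 ± 18.8 to 59.2 ± 23.7 CPM (edgeR adjusted p = 0.0185), while its paralogue Add3 rose from 146.3 ± 10.9 to 244.6 ± 47.7 CPM (0.0189). Synpo, which encodes synaptopodin of the cisternal organelle, rose 2.78-fold from 7.15 ± 1.75 CPM. The third that rose was Mapre1 (1.77-fold), whose product EB1 tracks microtubule ends, whereas its paralogue Mapre3, for the initial segment protein EB3, fell 1.63-fold; both are named after their values were seen. Among 18 genes of L1-family signalling and trafficking, 2 rose and 0 fell (4 lower at an unadjusted p under 0.05, 2 in DESeq2 and 0 in limma-voom). They were Msn (48.5 ± 14.1 to 110.5 ± 17.6 CPM) and Ezr (1.82-fold), for moesin and ezrin, which tie membrane proteins of the L1 type to actin. Their relative Rdx, for radixin, did not pass in edgeR (0.44, adjusted p = 0.0528) or limma-voom (0.0543) but did in DESeq2 (0.0212). Of 12 nodal matrix and glial ligand genes tested, 1 fell, the proteoglycan gene Bcan (12.9 ± 1.69 to 7.62 ± 1.68 CPM, edgeR adjusted p = 0.0467). The tenascin genes Tnr (-0.61) and Tnc (-0.82) did not pass in edgeR or limma-voom but were lower in DESeq2 (adjusted p = 0.037 and 0.0332).

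**Figure D4:**
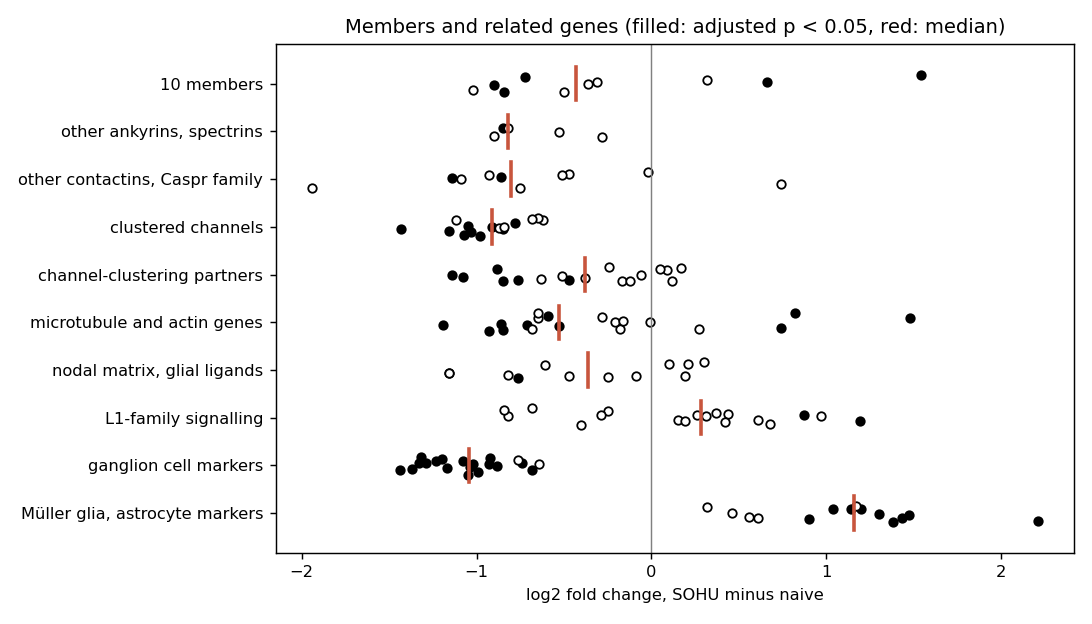
Log2 fold change (SOHU minus naive) of each of the 10 members and of the genes tested in the related lists and 2 cell type lists, with filled points for an adjusted p under 0.05 and the median of each list in red. Only the lists of L1-family signalling (0.29) and of Müller glia and astrocyte markers (1.15) have a median above 0 among those drawn.

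Ank3 had near patterns, by Pearson correlation of log2 CPM over the 6 libraries among 6381 other genes whose mean log2 CPM was 5 or more, in Mfsd6 (r = 0.995), Usp46 and Tro (0.994 each) and Fgf11 (0.993). These 4 were lower in every SOHU library than in any naive library, as Ank3 was. These values describe 6 libraries that differ in group and in depth, and both can enter the correlations. Mfsd6 fell 1.70-fold, and the other 3 did not pass.

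Each member called with all libraries missed the threshold in some fits with 1 library left out, and the cause was not tested. Chl1 kept a rise of 1.45 to 1.66 on the log2 scale with any library left out, but missed the threshold without naive replicate 1 (edgeR adjusted p = 0.0676) or naive replicate 3 (0.063). Cntn1, Sptan1 and Sptbn4 passed only without SOHU replicate 1 or SOHU replicate 3, and L1cam only without SOHU replicate 3. Without SOHU replicate 2 the edgeR adjusted p was 0.0603 for Cntn1, 0.0823 for Sptan1, 0.0971 for Sptbn4 and 0.117 for L1cam. Without naive replicate 2 it was 0.106, 0.0829, 0.0686 and 0.0777 in the same order. Without naive replicate 1 it was 0.118, 0.0842, 0.127 and 0.138, and without naive replicate 3 it was 0.129, 0.0695, 0.074 and 0.0968. L1cam had 0.0609 without SOHU replicate 1. Without SOHU replicate 3, Cntnap1 (-1.50, edgeR adjusted p = 0.00384) and Nfasc (-0.67, 0.019) passed too. With any 1 library left out the direction was the same for all 10 members.

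**Figure D5:**
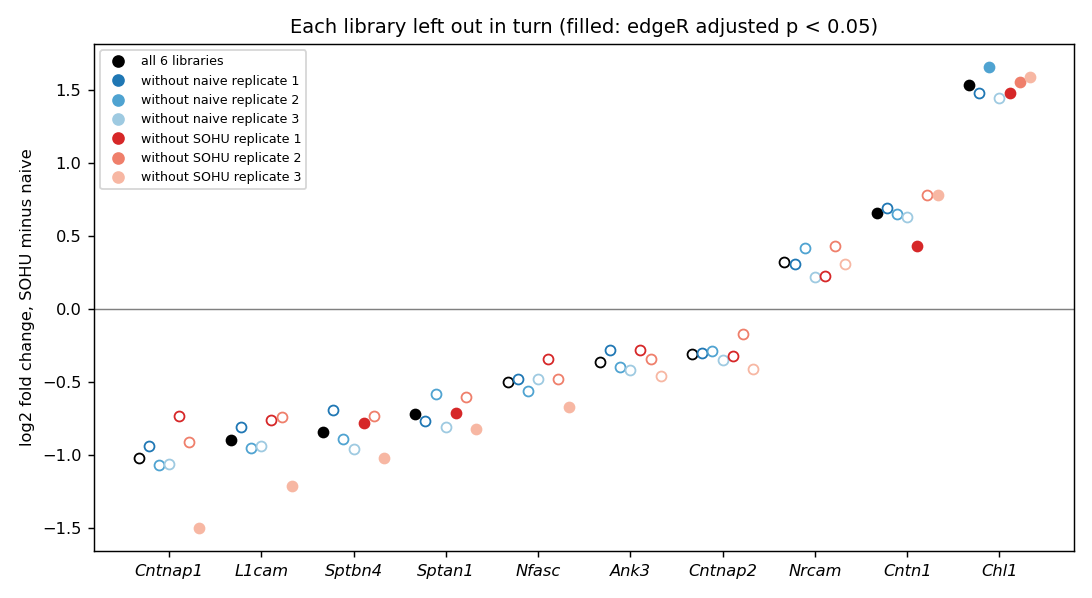
Log2 fold change (SOHU minus naive) of each gene with all 6 libraries (black) and with each library left out in turn (blue for naive, red for SOHU), filled where the edgeR adjusted p was under 0.05. No gene has points on both sides of 0, and all points without naive replicate 1 or naive replicate 3 are open.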

How the data were processed

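RNA of an anti-HA pull-down from mouse retina was counted in 3 naive and 3 SOHU libraries, grouped by their labelled titles. Gene-level raw counts were deposited by the authors, as single files and as 1 table whose 6 columns equalled them. The submitters' processing notes name featureCounts, HISAT2 and HISAT, Trim Galore, MultiQC and bcl2fastq 2.17, with build mm10. Settings, annotation, strand use and treatment of multiply aligned reads: not given in the sources used here. Symbols came from GENCODE M21 by identifier for 55154 of 55335 genes.

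Genes were filtered with filterByExpr, scaled by TMM (factors 0.9433 to 1.039) and compared across all genes with edgeR 4.0.16 (quasi-likelihood, robust, group only) in R 4.3.3, with a Benjamini-Hochberg adjusted p under 0.05 as the threshold. The common biological coefficient of variation was 22.3%. The fit was tested on simulated data. Alternatives were DESeq2 1.42.0, its size factors, limma-voom 3.58.1, no filter, non-robust estimation, ganglion cell marker scaling, the replicate number as a block, and each library left out. From each related list the text names the 3 genes with the smallest p and every called gene of a direction that held 2 or fewer, and for Ank3 the 5 most correlated genes; 2 genes that this rule takes are not reported here. The members and lists were chosen with earlier results of these data known.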

Additional observations from a re-analysis of the deposited data

How the results depend on the processing

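Apart from scaling to ganglion cell markers, all 10 members had the same direction in each of 12 alternatives. Under the marker scaling the members' median log2 fold change was 0.70, with 5 members higher and 0 lower, 41 and 0 related genes, and 12614 and 2 of all genes. The changes that turned above 0 there were those of Ank3 (0.78), Sptbn4 (0.30), Sptan1 (0.37), Nfasc (0.63), Cntnap1 (0.07), Cntnap2 (0.81), L1cam (0.21), Sptb (0.26), Ank2 (0.61), Cntn2 (0.03), Cntn4 (0.21), Cntnap4 (0.19), Kcnab2 (0.07), Fgf12 (0.05), Dlg2 (0.27), Bcan (0.38), Tnr (0.50) and Tnc (0.26), by construction of a scaling that moves all genes up.

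With no filter on low counts, 5 members and 1675 of all genes were lower, Nfasc and Cntnap1 being added. DESeq2 called 8 related genes higher and 42 lower, and 1731 of all genes lower. The cause was not tested. Sptan1, Sptbn4, L1cam, Chl1 and Cntn1 passed in all 6 alternatives with every library other than the marker scaling. With 1 library left out, 0 to 2 members were higher and 0 to 5 lower, 0 to 8 related genes were higher and 0 to 41 lower, 0 to 2051 of all genes were higher and 0 to 1845 lower, and the members' median was -0.57 to -0.33. Of the 10 members, 6 without naive replicate 1 and 7 without naive replicate 3 had an unadjusted p under 0.05 in edgeR, the only tool run on these omissions. Deviations of same-numbered libraries from their group means correlated at 0.163, 0.251 and 0.00399. Naive replicates 1 and 2 correlated best with the SOHU replicate of the same number, and naive replicate 3 with SOHU replicate 2 (0.0946). With so few libraries these values cannot decide whether the numbers pair them, and the labels state no pairing. With the replicate block, 2 members were higher and 3 lower, and 1178 and 892 of all genes. Per length, the members' share was 1.15-fold higher in naive, against 1.18-fold in reads.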
